A study of Mus musculus with 119 samples.

Results

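The effect of THC on gene expression in the nucleus accumbens (NAc) of male mice is described here from 12 libraries, FTL_321 to FTL_326 from vehicle-treated and FTL_327 to FTL_332 from THC-treated males. They were chosen by their labels alone and are 12 of the 119 libraries of the series, which covered 5 brain regions of both sexes. The THC males received 10 mg/kg of delta-9-tetrahydrocannabinol, the main psychoactive component of cannabis, as 1 intraperitoneal injection a day from postnatal day 28 to 48, and the control males received vehicle on the same days. All mice then had a drug-free period and went through behavioral tests before the brain was taken, so that the RNA was not collected soon after a dose. The labels name no engineered allele. The labels give the strain as C57BL/6J and the age as 11 weeks, whereas the methods of the study name C57BL/6NCrl. Each library held polyadenylated RNA of 1 punch of 1 mouse, cut with no purification of cell types. The comparison addressed which genes differ in the NAc of males after adolescent exposure to THC.

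The NAc is the ventral part of the striatum and a target of dopamine neurons in reward and motivation. Most of its neurons are medium spiny neurons, GABAergic projection cells that carry either the D1 or the D2 dopamine receptor and respond to dopamine through cAMP. THC activates the cannabinoid receptor 1 (CB1R), a receptor coupled to Gi proteins that sits largely on axon terminals and lowers transmitter release, and its natural ligands are lipids made and degraded by enzymes of the endocannabinoid (eCB) system.

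The sum of counts per library ranged from 12091765 to 21656022 with vehicle and from 14697742 to 40235601 with THC, and the difference in means did not pass an exact two-sided permutation test (p = 0.225). Counts of male-specific genes fitted the labelled sex in 12 of 12 libraries. In the vehicle library FTL_323 the sum of 4 genes of the Y chromosome was 68.6 CPM (counts scaled to a common library size), against 140.2 to 177 CPM in the other 11, and no Xist was counted there. All pairs among the 12 libraries, within and between the groups, had correlations of log2 CPM of 0.975 to 0.994, and no 2 libraries were identical. The markers of medium spiny neurons fitted the labelled tissue, with Ppp1r1b at 788 to 1231 CPM (median 1147) in the vehicle libraries. Markers of the cortex were low by comparison, and Neurod6 was below the filter, with at most 64 counts in any of the 12 libraries. The cortical marker Slc17a7, however, had 89.3 CPM in the vehicle library FTL_324 and 44.3 CPM in FTL_325, and at most 9.15 CPM in the others.

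A gene was called when its FDR was under 0.05 and its log2 fold change was 0.4 or more in either direction, and edgeR called 0 of 15932 genes (0%). The lowest adjusted p was 0.21, shared by 461 genes. An unadjusted p under 0.05 was found for 2653 genes (16.7%), of which 1291 (8.10%) were higher and 1362 (8.55%) lower with THC. In 71 genes (0.446%) all 6 THC libraries lay above all 6 vehicle libraries, and in 62 (0.389%) all lay below. DESeq2, run with the same thresholds, called 20 genes, 0.169% of the 11814 for which it gave an adjusted p, and 106 genes when no fold minimum was set. The median log2 fold change of all genes was 0.00. Levels are CPM after the TMM normalization of edgeR, and a log2 fold change above 0 means a higher level with THC. All counts of list members below are at an unadjusted p under 0.05 and are read against the 8.10% and 8.55% of all genes.

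The 12 genes of smallest p that were higher with THC were Epha8, Atp5g2, Ccdc106, Erdr1, Chrm4, Med27, Junb, Bcl11b, Mtus2, Dcp1b, Zfp503 and Wnt2, with log2 fold changes of 0.19 to 0.88 and an adjusted p of 0.21 each (edgeR). Epha8, a receptor of ephrins in axon guidance (chromosome 4, 136929419 to 136956816, mm10), had 29.1 to 36.8 CPM (median 33.8) with vehicle and 39.4 to 42.4 CPM (median 41.0) with THC. The groups did not overlap, and the log2 fold change was 0.31 ± 0.05 (SE). Atp5g2, a subunit of the mitochondrial ATP synthase, had 41.5 to 53.4 CPM (median 45.6) with vehicle and 54.5 to 63.7 CPM (median 59.3) with THC, again without overlap and with a log2 fold change of 0.36 ± 0.06 (SE). Its reads can be shared with processed pseudogenes, so its level is uncertain. Chrm4, the M4 muscarinic receptor of D1-type medium spiny neurons (chromosome 2, 91927249 to 91928688), had 34.0 to 43.2 CPM (median 36.6) with vehicle and 40.4 to 54.7 CPM (median 47.2) with THC, with a log2 fold change of 0.35 ± 0.07 (SE). Here 5 of 6 THC libraries lay above every vehicle library. Bcl11b, a transcription factor needed for medium spiny neurons to mature, stood at 217 to 261.4 CPM (median 244) with vehicle and 264.7 to 333.3 CPM (median 297.99) with THC. Its groups did not overlap, with a log2 fold change of 0.30 ± 0.06 (SE). Zfp503, a zinc finger gene of the developing striatum, did not overlap either, with 32.1 to 42.4 CPM (median 36.1) against 43.0 to 49.3 CPM (median 46.8) and a log2 fold change of 0.32 ± 0.07 (SE). Wnt2, a secreted signaling protein, had 10.4 to 12.9 CPM (median 11.6) with vehicle and 12.7 to 17.6 CPM (median 15.3) with THC, and 5 THC libraries lay above all vehicle libraries (log2 fold change 0.36 ± 0.08 (SE)).

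Erdr1 had the largest log2 fold change of these 12, 0.88 ± 0.16 (SE). Its level was 5.92 to 11.8 CPM (median 7.96) with vehicle and 12.6 to 20.6 CPM (median 15.3) with THC, with no overlap. Erdr1 comes from the pairing region shared by the X and Y chromosomes, has no position in the annotation used here, and may be present in copies that divide its reads, so its level is uncertain. Mid1, which in the mouse straddles the border of that region, had 8.11 to 10.6 CPM (median 9.81) with vehicle and 9.30 to 15.0 CPM (median 13.9) with THC, with a log2 fold change of 0.46 ± 0.11 (SE) and 5 THC libraries above all vehicle libraries. DESeq2 called both genes, Erdr1 at an adjusted p of 0.000675 and Mid1 at 0.0314. Of the 7 genes listed for the pairing region only these passed the filter, both at an unadjusted p under 0.05. The vehicle library FTL_323, with its lower sum of Y genes, had 7.46 CPM of Erdr1, within the range of the other vehicle libraries.

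The 12 genes of smallest p that were lower with THC were Esr1, Afap1l2, Hspa1a, Synm, Aard, Stx7, Echdc1, Tmem229a, Ano10, Adssl1, Basp1 and Trim26, with log2 fold changes from -0.85 to -0.16 and an adjusted p of 0.21 each (edgeR). Esr1, the estrogen receptor alpha (chromosome 10, 4611593 to 5005614), had 2.32 to 4.29 CPM (median 3.45) with vehicle and 1.51 to 2.26 CPM (median 1.90) with THC. The groups did not overlap and the log2 fold change was -0.85 ± 0.16 (SE), at a low level of the gene. Basp1, a membrane protein of growing axons, had 301.1 to 350.3 CPM (median 316.03) against 240.3 to 296.3 CPM (median 272.9), without overlap, and a log2 fold change of -0.24 ± 0.05 (SE). Stx7, a syntaxin of endosomes, differed by less, with 90.0 to 97.4 CPM (median 91.4) against 80.3 to 84.7 CPM (median 83.1), no overlap and a log2 fold change of -0.16 ± 0.04 (SE). Synm, an intermediate filament protein, had 27.4 to 34.7 CPM (median 31.3) with vehicle and 21.3 to 28.2 CPM (median 24.3) with THC, with 5 THC libraries below all vehicle libraries and a log2 fold change of -0.36 ± 0.07 (SE). Trim26, a ubiquitin ligase encoded among the MHC genes of chromosome 17, had 26.8 to 31.6 CPM (median 28.1) against 23.1 to 26.5 CPM (median 23.96), again without overlap (log2 fold change -0.24 ± 0.06 (SE)).

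**Figure D1:**
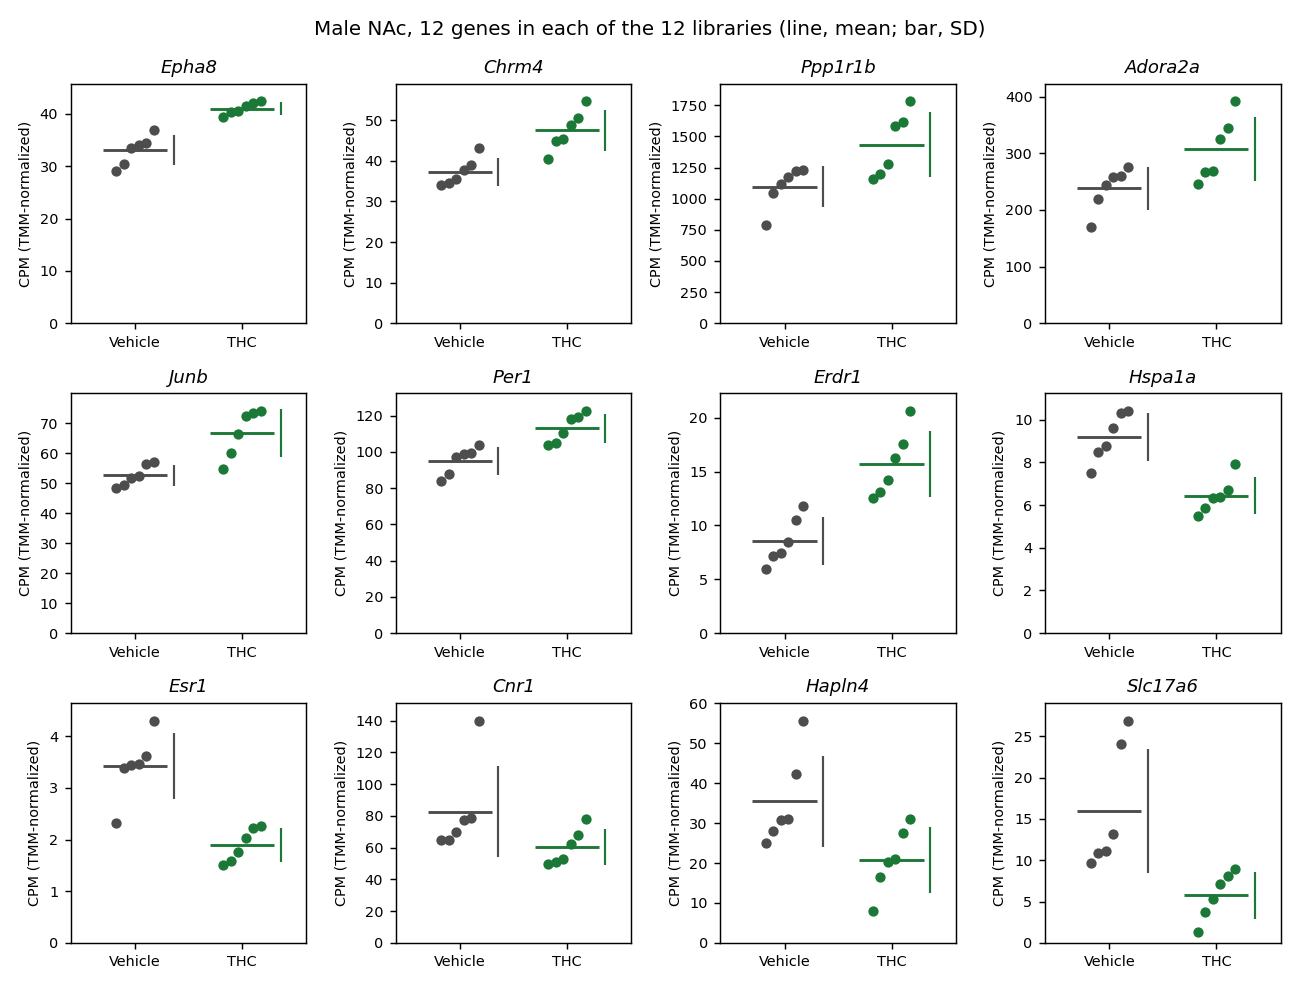
Level of 12 genes in CPM (y axis, TMM-normalized, from 0) in the 6 vehicle and 6 THC libraries of the male NAc, with 1 point per library, the mean as a line and the SD as a bar beside it. Epha8, Erdr1, Esr1 and Slc17a6 show no overlap between the groups, whereas the high vehicle point of Cnr1, at 139.7 CPM, is library FTL_325.

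Hspa1a, a heat shock protein of the HSP70 family, was the third by p among the genes lower with THC and was also called by DESeq2 (adjusted p = 0.00828). It had 7.50 to 10.4 CPM (median 9.19) with vehicle and 5.49 to 7.94 CPM (median 6.35) with THC, a log2 fold change of -0.52 ± 0.10 (SE), and 5 of 6 THC libraries lay below all vehicle libraries. Its neighbor Hspa1b encodes nearly the same protein, so reads can be divided between them and the levels of both are uncertain. The RefSeq sequences upstream of both start sites (GRCm38.p6, minus strand, bases -180 to -61 from the start) are shown because they carry the same match to a heat shock element and were identical at 120 of 120 bases. Capitals mark the letters GAANNTTC, which read the same on both strands.
Hspa1a, chr17:34972217-34972336: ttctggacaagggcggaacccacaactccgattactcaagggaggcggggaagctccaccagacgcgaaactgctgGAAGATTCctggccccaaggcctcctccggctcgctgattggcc
Hspa1b, chr17:34959299-34959418: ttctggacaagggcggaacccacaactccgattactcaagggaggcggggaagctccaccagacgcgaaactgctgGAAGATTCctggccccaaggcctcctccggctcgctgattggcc
No annotated transcript overlapped either stretch. The letters occurred in 6.69% of the 32851 RefSeq upstream windows of 250 bases. They occurred in at least 1 window of 6 of the 26 genes of the heat shock list with a window. A gene can have several windows, so the share of windows and the count of genes cannot be compared directly. Of the 32 tested members of the list of heat shock and protein folding, 5 were lower (15.6%) and 2 higher (6.25%), and the median log2 fold change was -0.04. The 5 lower were Hspa1a, Hsp90aa1, Hspa4l, Hspa8 and Creld2. The level and direction of Hspa1b are not reported here. Hsp90aa1, the inducible cytosolic HSP90, had 845 to 971 CPM (median 863) against 742 to 812 CPM (median 784) with no overlap and a log2 fold change of -0.17 ± 0.04 (SE) (edgeR adjusted p = 0.21).

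DESeq2 called 4 genes as higher with THC, Erdr1, Mid1, Gm11518 and Slc4a11, and 16 as lower, Hspa1a, Tmie, Ptprk, Kctd9, Fam220a, Snurf, Optn, Serpinf1, Fibcd1, Rhou, Gng2, Vxn, Mfsd4a, Rnd1, Rph3a and Ndst4. All 20 had an unadjusted p under 0.05 in edgeR, each with an edgeR adjusted p of 0.21. Ndst4, an enzyme that modifies heparan sulfate, had the largest of these differences, with 13.5 to 28.1 CPM (median 16.3) in vehicle and 4.84 to 14.6 CPM (median 9.87) in THC libraries and a log2 fold change of -0.94 ± 0.25 (SE) in edgeR. Mfsd4a, a membrane transporter, had 6.52 to 13.5 CPM (median 8.47) against 2.47 to 7.64 CPM (median 5.06), with 4 THC libraries below all vehicle libraries and a log2 fold change of -0.81 ± 0.24 (SE). Rph3a, rabphilin, which binds RAB3 on synaptic vesicles, had 137 to 202 CPM (median 155) with vehicle and 93.1 to 156 CPM (median 121) with THC and a log2 fold change of -0.43 ± 0.13 (SE). Gng2, a gamma subunit of G proteins, had 95.7 to 131 CPM (median 104) against 50.9 to 95.8 CPM (median 78.0) and a log2 fold change of -0.48 ± 0.15 (SE). Both are also expressed by cortical neurons, and the list of cortical and claustral projection neurons, which holds Gng2, is given below. Optn, an autophagy receptor, was lower without overlap, at 14.0 to 24.2 CPM (median 16.2) against 8.31 to 13.5 CPM (median 12.5) (log2 fold change -0.54 ± 0.14 (SE)). Gm11518, annotated as a processed pseudogene, so that its reads may come from another gene, was higher at 18.7 to 32.1 CPM (median 21.01) against 21.3 to 43.3 CPM (median 41.0) (log2 fold change 0.75 ± 0.17 (SE)), and Slc4a11, a membrane transporter, at 3.40 to 6.69 CPM (median 5.31) against 6.05 to 9.71 CPM (median 8.40) (log2 fold change 0.63 ± 0.15 (SE)), each with 5 THC libraries above all vehicle libraries.

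Most markers of medium spiny neurons were higher with THC at an unadjusted p under 0.05. Of the 28 members tested, 21 (75.0%) were higher and 0 lower, 28 had a log2 fold change above 0, and the median was 0.33 against 0.00 for all genes. No member passed the adjusted threshold in edgeR. In bulk RNA, more cells of a type and more RNA per cell cannot be told apart. Ppp1r1b (DARPP-32, chromosome 11, 98348404 to 98357796), which relays dopamine signals to protein phosphatase 1, had 788 to 1231 CPM (median 1147) with vehicle and 1155 to 1782 CPM (median 1431) with THC. The log2 fold change was 0.39 ± 0.13 (SE) (edgeR adjusted p = 0.21), and 4 of 6 THC libraries lay above all vehicle libraries. Drd1, the D1 receptor, had 135 to 190.1 CPM (median 171) against 165 to 245 CPM (median 209), with a log2 fold change of 0.33 ± 0.11 (SE) (edgeR adjusted p = 0.22). Drd2, the D2 receptor, had 87.0 to 136 CPM (median 116) against 111 to 191 CPM (median 155), with a log2 fold change of 0.36 ± 0.15 (SE) (edgeR adjusted p = 0.26). The difference between these 2 log2 fold changes was smaller than the SE of either. Adora2a, an adenosine receptor of the D2 class, had 170.1 to 276.3 CPM (median 251) with vehicle and 245 to 392 CPM (median 297.2) with THC (log2 fold change 0.37 ± 0.14 (SE)), and 3 THC libraries lay above all vehicle libraries. The groups overlapped for all of these receptors. Ptpn5, the striatal phosphatase STEP, had 373.4 to 496 CPM (median 487) against 497 to 662 CPM (median 568) without overlap and a log2 fold change of 0.28 ± 0.08 (SE). The members that did not reach an unadjusted p of 0.05 were Tac1, Isl1, Rasd2, Ppp1r1a, Ebf1, Sp9 and Drd3, with log2 fold changes from 0.01 for Isl1 to 0.30 for Rasd2.

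Genes of dopamine and cAMP signaling, some of which are also markers of medium spiny neurons, were higher in part. Of 41 members, 19 (46.3%) were higher and 5 (12.2%) lower, with a median log2 fold change of 0.15. Without FTL_331 there were 12 higher, without FTL_327 there were 8 lower, without both FTL_323 and FTL_325 there were 10 higher and 2 lower, and with the surrogate variable or the septal level described below there were 0 in either direction. Adcy5, the main adenylyl cyclase of the striatum, had 789 to 1074 CPM (median 1052) with vehicle and 1050.4 to 1518 CPM (median 1282) with THC and a log2 fold change of 0.33 ± 0.10 (SE). Gnal, the alpha subunit that couples dopamine and adenosine receptors to adenylyl cyclase, had 644 to 799 CPM (median 729) against 743 to 932 CPM (median 848) and a log2 fold change of 0.21 ± 0.06 (SE). Prkar2b, a regulatory subunit of protein kinase A, had 159.6 to 214 CPM (median 194) against 207 to 247 CPM (median 216) and a log2 fold change of 0.21 ± 0.07 (SE). In each, 4 of 6 THC libraries lay above all vehicle libraries. Of 39 genes of phosphoinositide and calcium signaling, 16 (41.0%) were higher and 8 (20.5%) lower, with a median of 0.05. Both counts of this list were 0 with the surrogate variable and 1 with the septal level. Plcl2, a phospholipase C-like protein, was higher at 93.2 to 117 CPM (median 107) against 110.4 to 129.6 CPM (median 119) (log2 fold change 0.19 ± 0.05 (SE)). Plcb4, a phospholipase C abundant in thalamic neurons, was lower, at 37.0 to 60.2 CPM (median 41.1) against 17.7 to 37.9 CPM (median 27.3) (log2 fold change -0.63 ± 0.18 (SE)).

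Immediate early genes, which neurons transcribe within minutes of activity, were higher in 9 of 18 members at an unadjusted p under 0.05. The share was 50.0%, 0 were lower and 4 had a log2 fold change below 0, with a median log2 fold change of 0.29. With the surrogate variable described below 1 was higher, and with the septal level 2 were. The members higher were Junb, Egr4, Egr1, Fosb, Egr3, Homer1, Nr4a1, Fosl2 and Egr2, with log2 fold changes from 0.28 to 0.57 and edgeR adjusted p-values from 0.21 to 0.24. Junb, a subunit of AP-1, had 48.5 to 57.0 CPM (median 52.1) with vehicle and 54.7 to 74.0 CPM (median 69.4) with THC, with 5 of 6 THC libraries above all vehicle libraries and a log2 fold change of 0.35 ± 0.07 (SE). Egr4, a zinc finger factor, had 18.2 to 22.5 CPM (median 22.3) against 20.6 to 31.3 CPM (median 27.9), with a log2 fold change of 0.32 ± 0.09 (SE). Egr1 had 70.6 to 89.2 CPM (median 73.4) against 77.6 to 116 CPM (median 96.8), with a log2 fold change of 0.34 ± 0.10 (SE). Fosb had 6.13 to 9.40 CPM (median 8.37) against 7.39 to 13.9 CPM (median 11.1) and a log2 fold change of 0.43 ± 0.13 (SE). The groups overlapped in all 4 genes. Fos itself had a log2 fold change of 0.17 ± 0.25 (SE) and Npas4 of -0.04 ± 0.18, and neither reached an unadjusted p of 0.05. Homer1, a scaffold of the postsynaptic density, is also transcribed without activity, and its isoforms were not told apart in these counts.

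Of 19 tested genes of the circadian clock, 8 (42.1%) were higher and 0 lower, with a median log2 fold change of 0.08. With the surrogate variable or the septal level described below, 2 were higher. Per1, a repressor of the clock loop that also responds to cAMP (chromosome 11, 69095217 to 69109960), had 84.0 to 104 CPM (median 98.2) with vehicle and 104 to 122.5 CPM (median 115) with THC, with 5 of 6 THC libraries above all vehicle libraries, a log2 fold change of 0.25 ± 0.06 (SE) and an edgeR adjusted p of 0.21. Its RefSeq upstream stretch (GRCm38.p6, plus strand, bases -180 to -61) is shown because it holds an E-box, the letters CACGTG bound by CLOCK and its partner. It lies in an intron of a longer annotated Per1 transcript. Capitals mark the E-box.
Per1, chr11:69098769-69098888: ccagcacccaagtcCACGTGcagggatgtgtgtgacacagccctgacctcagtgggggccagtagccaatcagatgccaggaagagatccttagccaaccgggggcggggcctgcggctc
An E-box, which reads the same on both strands, occurred in 6.02% of the 32851 upstream windows and in those of 5 of the 17 clock genes with a window. Per2 had 31.5 to 39.2 CPM (median 34.9) against 34.9 to 44.6 CPM (median 40.5), with a log2 fold change of 0.20 ± 0.06 (SE), and the groups overlapped. Nr1d1, the repressor REV-ERB alpha, had 76.2 to 88.8 CPM (median 81.4) against 86.9 to 93.2 CPM (median 90.9) and a log2 fold change of 0.14 ± 0.04 (SE). Hlf, an activator of the PAR bZIP family, had 103 to 126 CPM (median 113) against 114 to 141 CPM (median 133) and a log2 fold change of 0.18 ± 0.06 (SE). Arntl, the partner of CLOCK that peaks in antiphase to Per genes, had a log2 fold change of 0.08 ± 0.06 (SE). The hour at which each mouse was killed is not given in the sources used here, and its part in these differences was not tested.

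**Figure D2:**
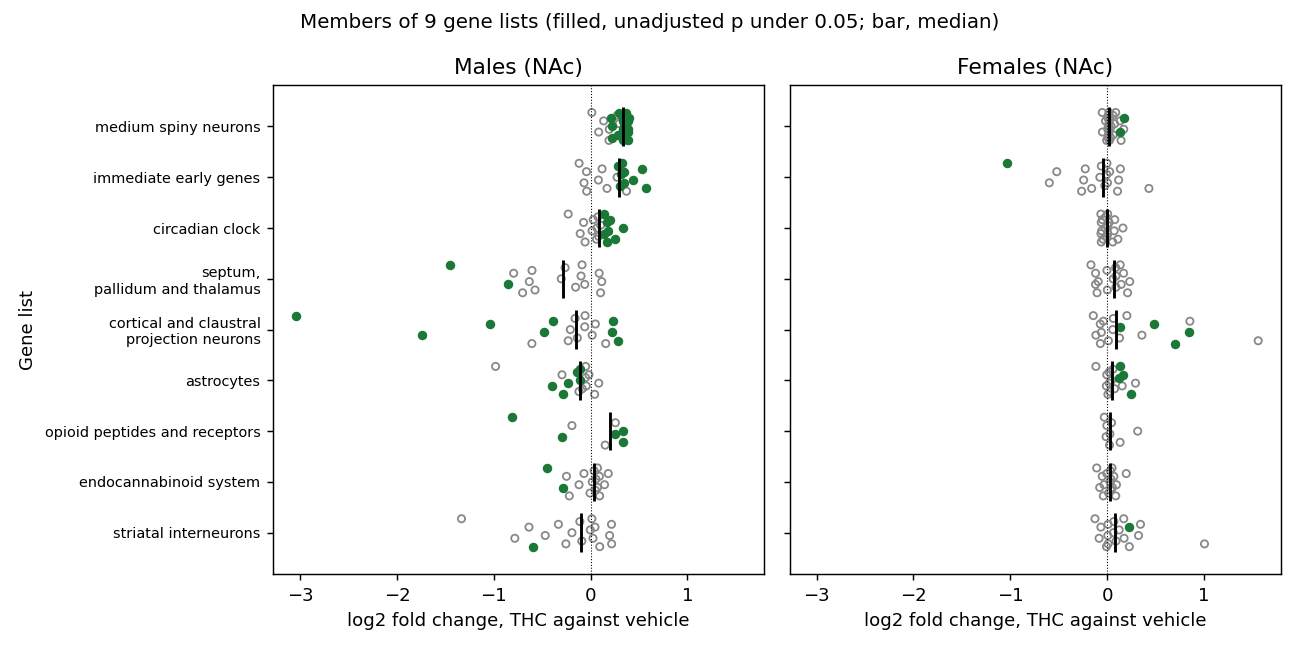
Log2 fold change of THC against vehicle (x axis) for each member of 9 gene lists (y axis) that was tested in males, in males at left and in females at right. Filled points have an unadjusted p under 0.05 and black bars are medians. In males the median of the markers of medium spiny neurons is 0.33 and that of the immediate early genes 0.29.

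For the eCB system itself, 2 of 17 tested genes (11.8%) were lower and 0 higher, with a median log2 fold change of 0.04. Cnr1, which encodes CB1R (chromosome 4, 33924593 to 33948831), had 64.6 to 139.7 CPM (median 73.6) with vehicle and 49.5 to 78.1 CPM (median 57.5) with THC. The log2 fold change was -0.45 ± 0.20 (SE) (edgeR adjusted p = 0.30), and 4 THC libraries lay below all vehicle libraries. This value rests in part on FTL_325, the vehicle library with 139.7 CPM, since the log2 fold change was -0.23 without it. Faah, the hydrolase of anandamide, had 27.4 to 31.8 CPM (median 30.6) with vehicle and 19.4 to 29.9 CPM (median 23.8) with THC, with a log2 fold change of -0.28 ± 0.09 (SE) (edgeR adjusted p = 0.21). Mgll, the hydrolase of 2-arachidonoylglycerol, had 184 to 254 CPM (median 216) against 195 to 282.6 CPM (median 246), with a log2 fold change of 0.18 ± 0.09 (SE) (edgeR adjusted p = 0.31). Napepld, which makes anandamide, had 5.24 to 9.08 CPM (median 6.54) against 4.68 to 6.72 CPM (median 5.64), with a log2 fold change of -0.25 ± 0.13 (SE) (edgeR adjusted p = 0.35). The log2 fold change of Napepld was -0.15 without FTL_325. The ranges of the groups overlapped in all 4 genes.

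Of 8 genes of opioid peptides and receptors, 3 (37.5%) were higher and 2 (25%) lower. Both counts were 0 with the surrogate variable or the septal level described below. Penk, the precursor of enkephalins in D2-type neurons, had 661 to 1055 CPM (median 896) against 961 to 1359 CPM (median 1076), with a log2 fold change of 0.34 ± 0.12 (SE). Pdyn, the precursor of dynorphins in D1-type neurons, had 169.5 to 303.4 CPM (median 254) against 271.4 to 368.1 CPM (median 310.7), with a log2 fold change of 0.34 ± 0.12 (SE). Both are members of the medium spiny list as well. Oprl1, the nociceptin receptor, was lower at 53.9 to 65.6 CPM (median 61.1) against 40.9 to 56.4 CPM (median 50.4) (log2 fold change -0.29 ± 0.08 (SE)), and its ligand precursor Pnoc had 4.29 to 10.7 CPM (median 8.38) against 1.24 to 6.42 CPM (median 4.81) (log2 fold change -0.82 ± 0.34 (SE)). The groups overlapped in all 4 genes, and the edgeR adjusted p ranged from 0.21 to 0.26.

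Markers of cells around the NAc were examined because a punch can include such cells. Of 16 tested markers of septum, pallidum and thalamus, 2 (12.5%) were lower and 0 higher, 13 had a log2 fold change below 0, and the median was -0.28. The 2 became 4 without FTL_323 or without FTL_324. Their summed level ranged from 244 to 377.6 CPM with vehicle and from 161 to 289.5 CPM with THC. The summed level of the medium spiny markers ranged from 7798 to 11060.0 and from 10200.0 to 14920.0 CPM in the same order. Slc17a6, the vesicular glutamate transporter of thalamic and other subcortical neurons (chromosome 7, 51622006 to 51671119), had 9.62 to 26.9 CPM (median 12.1) with vehicle and 1.37 to 8.90 CPM (median 6.24) with THC. There was no overlap, and the log2 fold change was -1.45 ± 0.42 (SE) (edgeR adjusted p = 0.21). Esr1 is the other member at an unadjusted p under 0.05. Zic1, a factor of septal neurons, had 46.5 to 125 CPM (median 92.7) against 23.2 to 81.2 CPM (median 56.3), with a log2 fold change of -0.70 ± 0.37 (SE) (edgeR adjusted p = 0.36). All 4 defining markers, Slc17a6, Zic1, Zic4 and Trpc4, were above 0 in every library.

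Of 18 tested markers of cortical and claustral projection neurons, 5 (27.8%) were lower and 3 (16.7%) higher, and the median log2 fold change was -0.15. The 5 became 3 without any 1 of FTL_324, FTL_325, FTL_330, FTL_331 or FTL_332. Slc17a7, the vesicular glutamate transporter of cortical neurons, had 0.919 to 89.3 CPM (median 2.55) with vehicle and 0.694 to 9.15 CPM (median 1.14) with THC. The high vehicle values were 89.3 CPM in FTL_324 and 44.3 CPM in FTL_325, and the log2 fold change of -3.05 ± 1.29 (SE) ranged from -3.98 to -1.83 as single libraries were left out. Tbr1, a transcription factor of deep cortical layers, had 2.704 to 9.69 CPM (median 5.99) against 0.378 to 3.76 CPM (median 1.69), with 5 of 6 THC libraries below all vehicle libraries and a log2 fold change of -1.74 ± 0.45 (SE) (edgeR adjusted p = 0.21). Synpr, synaptoporin, was higher at 109.6 to 139 CPM (median 132) against 128 to 192 CPM (median 153) (log2 fold change 0.29 ± 0.09 (SE)), and so was Gnb4, a beta subunit of G proteins, at 53.9 to 75.4 CPM (median 69.3) against 69.3 to 86.6 CPM (median 79.8) (log2 fold change 0.23 ± 0.07 (SE)). Both are also expressed in the striatum, and the other member higher, Foxp2, is also in the medium spiny list. The summed level of the list overlapped almost wholly, from 684 to 811 CPM with vehicle and from 721 to 747 CPM with THC. That sum was led by Synpr, Foxp2, Tle4 and Gng2, with vehicle means of 128, 120, 115 and 108 CPM. The vehicle means of Slc17a7 and Tbr1 were 23.5 and 6.05 CPM, so the sum says little about these 2 markers.

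Among 18 markers of striatal interneurons, 1 (5.56%) was lower and 0 higher. It was Calb2, calretinin, with 28.6 to 48.2 CPM (median 35.2) against 13.5 to 32.0 CPM (median 26.3) and a log2 fold change of -0.60 ± 0.24 (SE). Pvalb, parvalbumin, had 1.56 to 15.4 CPM (median 4.52) with vehicle and 0.55 to 6.72 CPM (median 2.49) with THC, with overlap and an edgeR adjusted p of 0.32. Its 2 highest values were in FTL_323 (13.1 CPM) and FTL_325 (15.4 CPM). Chat, which makes acetylcholine, had a log2 fold change of -0.09 ± 0.17 (SE), smaller than its error. Of 16 astrocyte markers, 6 (37.5%) were lower and 0 higher, with a median of -0.11. As single libraries were left out the 6 became 1 to 8, with 1 without FTL_325 or FTL_331, 2 without FTL_323 or FTL_330 and 3 without FTL_328 or FTL_329. Gjb6, connexin 30, had 26.7 to 42.2 CPM (median 29.1) against 16.6 to 29.2 CPM (median 23.5) (log2 fold change -0.40 ± 0.14 (SE), edgeR adjusted p = 0.22). S100b had 62.3 to 91.5 CPM (median 68.6) against 56.5 to 75.7 CPM (median 61.6) (log2 fold change -0.23 ± 0.10 (SE)). The summed astrocyte level was 5204 to 5737 CPM with vehicle and 5114 to 5615 CPM with THC, so the groups overlapped. Of 16 oligodendrocyte markers 2 (12.5%) were lower and 0 higher, with 16 log2 fold changes below 0 and a median of -0.18, and of 10 markers of their precursors 2 (20.0%) were lower. Single libraries decided the oligodendrocyte count, which was 10 without FTL_328, 1 without FTL_321 or FTL_331 and 0 without any 1 of FTL_322, FTL_323, FTL_327, FTL_329 or FTL_330. The count of precursor markers ranged from 1 to 4 as single libraries were left out. Microglia markers had 0 of 16 at an unadjusted p under 0.05 and a median of -0.01. Endothelium and pericytes had 2 of 16 lower (12.5%), and dopaminergic neurons 1 of 5 tested (20.0%), Ret. For ependyma, choroid plexus and the subventricular zone, 1 of 11 was higher and 1 lower, and the defining marker Tmem212 was below the filter. The part of dissection in the differences of the preceding paragraphs was not tested beyond the fits with the septal and the cortical level as covariates, given below. The astrocyte level also followed treatment (Pearson r = -0.55 over the 12 libraries, a description only) and was not fitted as a covariate.

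The first principal component of the 12 libraries, from the 500 genes of largest variance, held 23.5% of the variance. Its mean was -7.68 ± 8.62 (SD, n = 6) with vehicle and 7.68 ± 6.92 (SD, n = 6) with THC, a difference of 15.4 that passed an exact two-sided permutation test (p = 0.00866, adjusted over 2 components 0.0173). The second component, with 14.0% of the variance, did not separate the groups by the same exact test (p = 0.426). The vehicle end of the first component was led by Rpl27-ps3, Pvalb, Gal, Rn7s1, 2610028E06Rik and Lhx5. Farther down among its leading genes were Slc17a6, Avpr1a, Tbr1 and Slc17a7, beside symbols of predicted genes such as Gm22513 and Gm42791. Of the genes named, Slc17a6 is in the list of septum, pallidum and thalamus, Tbr1 and Slc17a7 are cortical markers and Pvalb is an interneuron marker. The others are in none of these lists. Vehicle libraries FTL_325, at -20.4, and FTL_323, at -15.7, were at this end. THC libraries FTL_331, at 15.6, and FTL_329, at 13.6, were at the other. That end was led by Gm14440, Trpc2 and Gm20458, with Mki67 and Top2a of the list of ependyma, choroid plexus and subventricular zone farther down. With all genes past the filter the exact permutation p of the first component was 0.013, with the variance stabilizing transformation 0.0108, and with a prior count of 0.5 it was 0.00649.

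**Figure D3:**
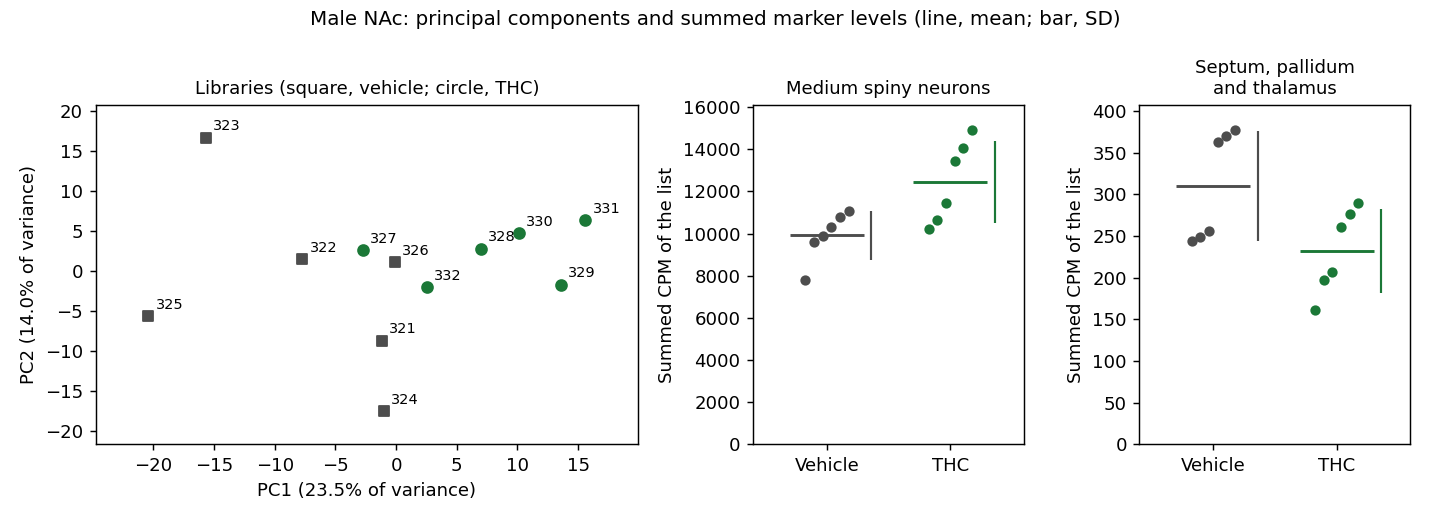
Left, the 12 male NAc libraries on PC1 (x axis) and PC2 (y axis), labelled by library number, squares for vehicle and circles for THC. Middle and right, the summed CPM of the markers of medium spiny neurons and of septum, pallidum and thalamus in each library, with the mean as a line and the SD as a bar. Vehicle libraries FTL_323 and FTL_325 lie farthest left on PC1, and the groups overlap in both sums.

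Because the septal level followed treatment (Pearson r = -0.59 over the 12 libraries, a description only), it was added to the model as a covariate after the data were seen. The number of genes at an unadjusted p under 0.05 was then 474, and the medium spiny markers had 2 members higher with a median log2 fold change of 0.10. With 1 surrogate variable estimated by sva, which had r = 0.64 with treatment, the number was 531 and the medium spiny markers again had 2 members higher, with a median of 0.04. A term so close to treatment also takes up differences due to treatment, and the 2 cannot be told apart in these libraries. With the cortical level as a covariate, which had r = -0.34 with treatment, 1670 genes were under that threshold, with 16 medium spiny members higher. Without the vehicle libraries FTL_323 and FTL_325 there were 1513 genes, with 11 medium spiny members, 6 immediate early genes and 5 clock genes higher. Leaving out 1 library at a time gave 17 to 24 medium spiny members, 8 to 11 immediate early genes and 7 to 9 clock genes. Among the other lists, members higher ranged in the same way from 8 to 18 of 39 for phosphoinositide and calcium signaling (16 reported, 8 without FTL_323, FTL_329 or FTL_330) and from 4 to 9 of 24 for glutamate receptors (7 reported, 4 without FTL_329). Ribosomal proteins had 18 of 85 higher without FTL_323, 10 without FTL_332 and 8 without FTL_324, against 3 with all libraries. Oxidative phosphorylation had 7 of 77 higher without FTL_323 and 8 without FTL_328, against 3. Members lower ranged from 0 (without FTL_325) to 8 (without FTL_327) of 31 for the key drivers, from 2 (without FTL_325) to 5 of 32 for heat shock and protein folding, and from 1 to 4 of 17 for the eCB system (4 without FTL_326).

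**Figure D4:**
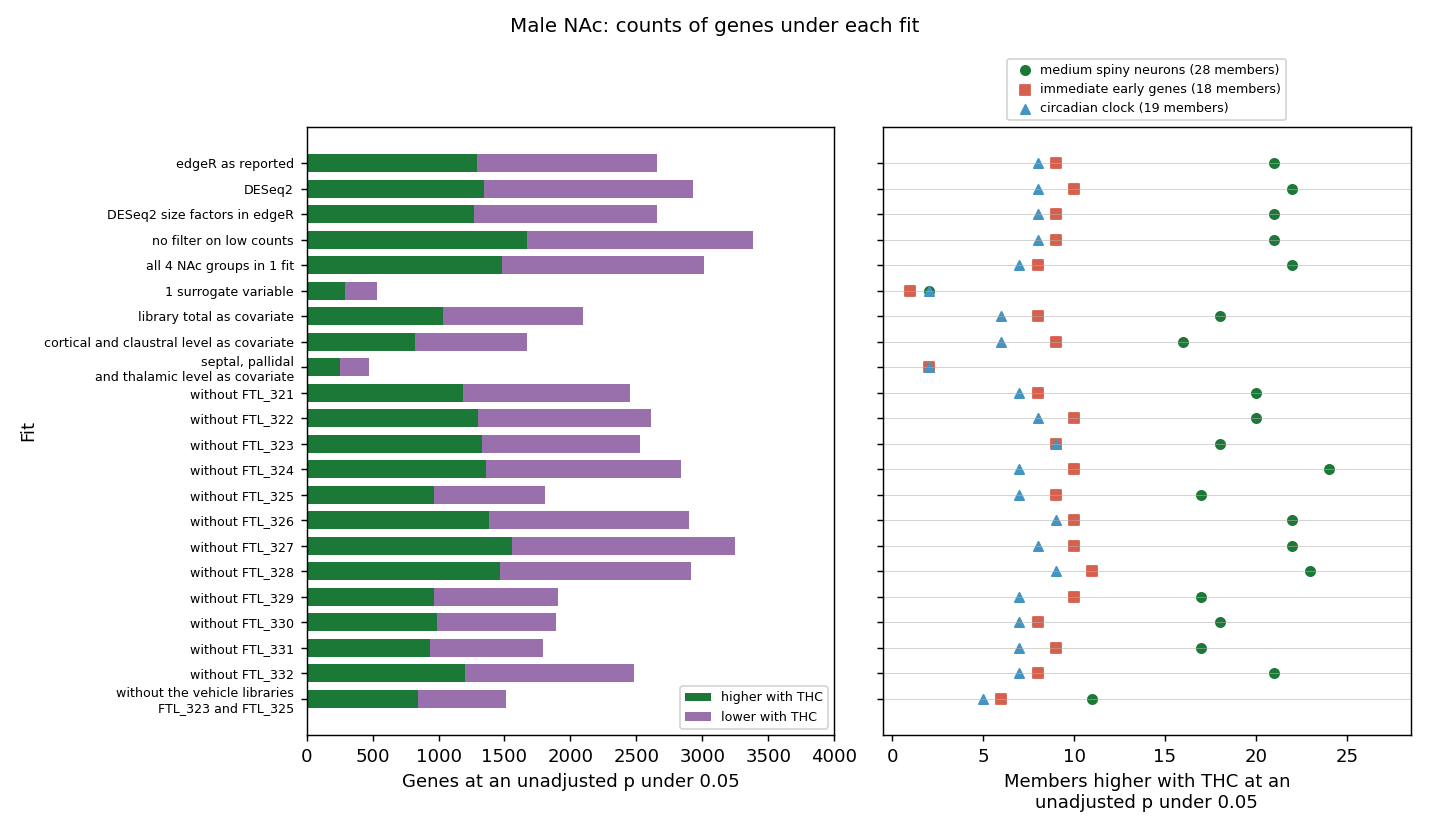
Left, the number of genes (x axis) at an unadjusted p under 0.05 under each fit (y axis), split by direction. Right, the number of members of 3 lists that were higher with THC at that p. The reported fit gives 2653 genes and 21 medium spiny members, and both numbers are smallest with the surrogate variable or the septal level in the model.

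The study named key driver genes of networks of the male NAc. It started from modules of these samples and used gene networks built from other human and mouse data, with human genetic data on cannabis use disorder. The list rests in part on these samples and is no independent evidence of direction. Of its 31 members, 5 (16.1%) were lower and 2 (6.45%) higher, with a median log2 fold change of -0.04. None were lower with the surrogate variable or the septal level, where 1 and 2 were higher. Hapln4, which links hyaluronan to proteoglycans in perineuronal nets (chromosome 8, 70083457 to 70090862), had 25.1 to 55.6 CPM (median 30.9) with vehicle and 7.86 to 31.0 CPM (median 20.7) with THC. The log2 fold change was -0.77 ± 0.31 (SE) (edgeR adjusted p = 0.26), with 4 of 6 THC libraries below all vehicle libraries. Kcnc1, a potassium channel of fast-spiking neurons, had 149 to 235 CPM (median 178) against 129 to 178 CPM (median 156) (log2 fold change -0.26 ± 0.11 (SE), edgeR adjusted p = 0.27). Elavl2, a neuronal RNA-binding protein, had 37.95 to 91.4 CPM (median 46.5) against 28.1 to 48.5 CPM (median 37.6) (log2 fold change -0.47 ± 0.21 (SE), edgeR adjusted p = 0.30), and without FTL_325, which held its highest value, the log2 fold change was -0.23. Zcchc12, a transcriptional coactivator, had 318.7 to 379.9 CPM (median 334.5) against 292.2 to 370.7 CPM (median 323.01) (log2 fold change -0.06 ± 0.06 (SE), edgeR adjusted p = 0.65). The groups overlapped in all 4 of these genes. Mtus2, a microtubule-associated protein, was the member of smallest p, with 48.2 to 55.1 CPM (median 51.9) against 56.9 to 63.4 CPM (median 59.3), no overlap and a log2 fold change of 0.19 ± 0.04 (SE). Sucla2 of the citric acid cycle and Ncoa4, the receptor of ferritin autophagy, were lower by less, with log2 fold changes of -0.11 ± 0.04 (SE) and -0.10 ± 0.04 (SE).

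Genes of synaptic vesicle release were split, with 6 of 36 lower (16.7%) and 3 higher (8.33%) and a median of -0.06. The 6 lower became 10 without FTL_327 and 3 without any 1 of FTL_325, FTL_328 or FTL_330, the 3 higher became 5 without FTL_327 or FTL_328, and both were 0 with the surrogate variable or the septal level. Sv2c, the vesicle protein most abundant in the basal ganglia, had medians of 220.2 CPM with vehicle and 276.4 CPM with THC (log2 fold change 0.24 ± 0.07 (SE)), and Unc13a, a priming factor, had 259 to 302.04 CPM (median 292.3) against 289.9 to 326.7 CPM (median 318.9) (log2 fold change 0.13 ± 0.04 (SE)). Amph, amphiphysin, was lower, at 126 to 155 CPM (median 129) against 109.7 to 129 CPM (median 119) (log2 fold change -0.16 ± 0.05 (SE)). Among glutamate receptors 7 of 24 were higher (29.2%) and 4 lower (16.7%). Both counts were 0 with the surrogate variable, and with the septal level 1 was higher and 0 lower. Grm4, a presynaptic metabotropic receptor, had 59.0 to 83.4 CPM (median 74.6) against 83.2 to 104 CPM (median 88.4) and a log2 fold change of 0.32 ± 0.08 (SE). Grin2b, an NMDA receptor subunit, had medians of 362.8 CPM with vehicle and 425 CPM with THC and a log2 fold change of 0.23 ± 0.06 (SE). Among GABA receptors 6 of 16 were lower (37.5%) and 3 higher (18.8%), and both counts were 0 with the surrogate variable or the septal level. Gabra3, an alpha subunit of the GABA-A receptor, was lower at 81.9 to 107 CPM (median 89.3) against 60.6 to 84.3 CPM (median 75.5) (log2 fold change -0.29 ± 0.08 (SE)), and Gabbr2 of the GABA-B receptor was lower at 133 to 166 CPM (median 144) against 109 to 146 CPM (median 128) (log2 fold change -0.20 ± 0.07 (SE)). The edgeR adjusted p of these 7 genes ranged from 0.21 to 0.22.

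Lists of protein turnover, antigen presentation, chromatin and ribosomes had few members at an unadjusted p under 0.05. Of 68 genes of ubiquitin conjugation, 4 were higher (5.88%) and 3 lower (4.41%), with a median of -0.01. Nedd4l, a ubiquitin ligase of ion channels, had 162 to 209.7 CPM (median 193) against 190.2 to 251 CPM (median 229) (log2 fold change 0.24 ± 0.08 (SE)). Of 32 proteasome genes, 4 were lower (12.5%) and 0 higher, led by Psmd12 with 57.9 to 66.4 CPM (median 61.3) against 53.4 to 61.8 CPM (median 54.4) (log2 fold change -0.17 ± 0.05 (SE)). Of 30 genes of interferon response and MHC class I, 2 were lower (6.67%) and 0 higher. They were H2-D1, a class I heavy chain, at 32.0 to 45.1 CPM (median 36.4) against 26.5 to 37.999 CPM (median 30.7) (log2 fold change -0.27 ± 0.09 (SE)), and B2m, its light chain, at 23.9 to 36.6 CPM (median 32.7) against 25.2 to 29.6 CPM (median 27.9) (log2 fold change -0.21 ± 0.08 (SE)). The adjusted p was at least 0.21 in edgeR for all of these genes. Of 12 perineuronal net genes 2 were higher (16.7%) and 1 lower (8.33%), of 50 chromatin regulators 3 (6.00%) and 1 (2.00%), and of 16 glucocorticoid response genes 1 (6.25%) and 2 (12.5%). Cytosolic ribosomal proteins had 3 of 85 higher (3.53%), nuclear oxidative phosphorylation 3 of 77 (3.90%) and mitochondrially encoded genes 1 of 13 (7.69%), each with 0 lower. Nuclear and long noncoding RNAs had 1 of 15 higher, Malat1, and 1 lower, Miat.

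The NAc of females, with 6 vehicle and 6 THC libraries of its own, was fitted in the same way. There edgeR called 0 genes, and at an unadjusted p under 0.05 2.43% of 16428 genes were higher and 2.17% lower. Markers of medium spiny neurons had 2 of 28 higher, a median log2 fold change of 0.02 and 24 values above 0. Immediate early genes had 0 of 18 higher and 1 lower, Fos, with a median of -0.04, and the clock genes 0 in either direction. Cnr1 had a log2 fold change of 0.20 in females and Hapln4 of 0.17, each with an edgeR adjusted p of 0.99. The difference between the sexes was tested as an interaction in 1 fit of the 24 libraries, where edgeR called 0 of 16773 genes (0%) and DESeq2 0, with 1845 genes (11.0%) at an unadjusted p under 0.05 in edgeR. Of these, 861 (5.13%) had a higher and 984 (5.87%) a lower log2 fold change in males. The interaction was positive at that p in 12 of 28 medium spiny members and 5 of 18 immediate early genes, and negative in 14 of 36 genes of vesicle release, 10 of 24 cortical markers (2 were positive) and 6 of 16 astrocyte markers. In females 7 of 36 genes of vesicle release, 4 of 22 cortical markers and 4 of 16 astrocyte markers were higher with THC at an unadjusted p under 0.05 and 0 were lower, and 36 of the 36 genes of vesicle release had a log2 fold change above 0. Bcl11b had 0.02 in females against 0.30 in males (edgeR adjusted p of the interaction 0.39). Hspa1a had 0.05 against -0.52 (edgeR adjusted p of the interaction 0.38). No interaction passed the threshold, so a difference between the sexes was not shown for any gene.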

How the data were processed

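Brain punches were read as libraries of polyadenylated RNA, made stranded and sequenced in pairs. Per the labels, the authors used cutadapt 2.9, STAR 2.7.3a and RSEM 1.3.1 on mm10, and the deposited values are expected counts per gene without normalization, in which RSEM divides a read that matches several genes among them. Of these values 4.94% were not whole, and they were rounded. The fits used the 24 NAc libraries, 12 of each sex, and the amygdala and ventral tegmental area libraries deposited with them were not used. Groups came from the sample titles. The 12 male NAc libraries were fitted on their own in edgeR 4.0.16 (R 4.3.3), with its filter on low counts, TMM, robust quasi-likelihood F tests and Benjamini-Hochberg adjustment over 15932 of 55291 genes. A gene was called when its FDR was under 0.05 and its log2 fold change was 0.4 or more in either direction. DESeq2 1.42.0, the tool of the study, and sva 3.50.0 served as alternatives. Levels are TMM-normalized CPM, log2 CPM used a prior count of 2, and single values were compared by exact permutation. Each SE of an edgeR log2 fold change was derived from its F test, as the absolute log2 fold change over the square root of F.

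Members and gene lists were chosen with earlier results of these data known. Named genes are the 12 of smallest p in each direction, those called by DESeq2, up to 4 of smallest p in each list, the first 4 of each cell type list, up to 10 genes called for the interaction (0 were), Cnr1 and the drivers Hapln4, Kcnc1, Elavl2 and Zcchc12. Other genes named, such as Egr3, Fos and Arntl, were chosen after their values were seen. Some genes that this rule names are not reported here. The scripts were tested on simulated data. Positions are from GENCODE M21, which held 53292 of the symbols, and upstream sequences from RefSeq (GRCm38.p6). Labels do not tie libraries to mice, and per the methods each region of each mouse was a separate library, so that p-values measure the spread between mice as far as that holds. Depth, 12091765 counts at the lowest, and groups of 6 limit how small a difference can be found. Alternatives were another normalization, no filter, all 4 NAc groups in 1 fit, covariates and libraries left out.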

Additional observations from a re-analysis of the deposited data

Results flagged for a closer look

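Single libraries stood apart from the other 5 of their group by Dixon's ratio (gap to the nearest library over the range, at its 95% critical value) in 13 of 220 values examined, and chance gives about 1 in 20. In 10 of them the library was the vehicle library FTL_325. It had low values of Ptpn5 (373.4 CPM), Adcy5 (789 CPM) and Egr4 (18.2 CPM), and high values of Cnr1 (139.7 CPM), Elavl2 (91.4 CPM), Plcb4 (60.2 CPM), Gjb6 (42.2 CPM), Amph (155 CPM), Hsp90aa1 (971 CPM) and Optn (24.2 CPM). In these 10 genes FTL_325 stood on the side away from the THC group, and choosing genes by small p in this comparison favors that side. In FTL_325 the summed marker level of septum, pallidum and thalamus was 363.5 CPM, within the range of the other vehicle libraries. Its summed level of medium spiny markers, 7798 CPM, was the lowest of the 12 libraries. It had the highest Slc17a6 (26.9 CPM) and Tbr1 (9.69 CPM) of the 12, and its PC1 value, -20.4, was the lowest. The number of genes at an unadjusted p under 0.05 was 1805 without it, against 2653, and its part in the single differences was not tested beyond the fits without it. The other values were Gm11518 in the vehicle library FTL_322 (32.1 CPM), Fam220a in the THC library FTL_330 (25.6 CPM) and Psmd12 in the THC library FTL_327 (61.8 CPM), each of which lay toward the other group.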

How the results depend on the processing

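No paired analysis was possible because library numbers are not shared between the groups and the labels name no mouse, litter or batch. The number of genes called by edgeR was 0 in the reported fit, with DESeq2 size factors, without the filter, with all 4 NAc groups in 1 fit, with each covariate, with no fold minimum, at an adjusted p under 0.10 and without each library, and DESeq2 called 20. Without the filter and with all 4 groups, 2 genes each passed an FDR of 0.05 below the fold minimum. The number at an unadjusted p under 0.05, 2653 as reported, was 531 with the surrogate variable, 1670 with the cortical level, 474 with the septal level and 1513 without the vehicle libraries FTL_323 and FTL_325. The last 2 choices were made after seeing the data. It ranged from 1789 (without FTL_331) to 3250 (without FTL_327) as single libraries were left out. Members of lists at an unadjusted p under 0.05 moved as follows. With the surrogate variable there were 2 medium spiny, 1 immediate early and 2 clock genes higher and 0 astrocyte, 1 cortical and 1 septal marker lower. With the septal level there were 2, 2 and 2 higher and 0, 1 and 1 lower. Without FTL_323 and FTL_325 there were 11 medium spiny and 5 clock genes higher and 0 astrocyte and 2 cortical markers lower. DESeq2 gave 9 of 24 cortical and 4 of 18 septal markers lower and the fit of all 4 groups 8 of 24 cortical, with more markers tested than the 18 and 16 of the reported fit, the library total 3 cortical and the cortical level 1 astrocyte marker. Leaving out single libraries gave 17 to 24 medium spiny, 8 to 11 immediate early and 7 to 9 clock genes higher, and 1 to 8 astrocyte, 3 to 7 cortical and 2 to 4 septal markers lower. The causes were not tested.

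Of 101 named genes under 21 other fits, 25 of 2121 log2 fold changes changed sign, none of them in a gene that any reported test called. With the surrogate variable these were Drd2 (-0.017), Cnr1 (0.0078), Kcnc1 (0.048), Elavl2 (0.030), S100b (0.041), Arntl (-0.060), Mgll (-0.012), Pvalb (0.24), Chat (0.17), Isl1 (-0.056) and Rasd2 (-0.052). With the septal level they were Zcchc12 (0.017), Chat (0.030) and Npas4 (0.10), and Npas4 was also above 0 with the library total (0.063) and the cortical level (0.045). Without FTL_323 and FTL_325 they were Chat (0.035) and Isl1 (-0.078). As single libraries were left out, Chat ranged from -0.17 to 0.075 (above 0 without FTL_325), Fos from -0.0094 to 0.37 (below 0 without FTL_332), Isl1 from -0.050 to 0.075 (below 0 without FTL_323 or FTL_329) and Npas4 from -0.13 to 0.043 (above 0 without FTL_321, FTL_327 or FTL_331). The interaction had 0 genes called in every fit, with 1281 to 2513 at an unadjusted p under 0.05 as single libraries were left out. PC1 kept its exact permutation p under 0.05 and PC2 kept its p over it in the 3 alternatives run. These were all genes past the filter, the variance stabilizing transformation and a prior count of 0.5, each with all 12 libraries. The components were not recomputed with libraries left out. For depth, the exact permutation p was 0.225 for the library total and 0.327 for the number of genes detected.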
